A study of Mus musculus with 2 samples.

Results

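The Mir322 cluster is a group of miRNA genes that lie close together on the minus strand of the mouse X chromosome. Its 7 members are Mir322, Mir503, Mir351, Mir542, Mir450-2, Mir450-1 and Mir450b. They were chosen by gene symbol, through the Ensembl identifiers of the count tables, and they are 7 of the 1973 miRNA genes counted. The tissue was limb of B6NCrl mouse embryos at embryonic day 13.5, pooled from males and females and healthy per the labels, which name no treatment and no altered allele. The series holds 1 group, represented by 2 libraries of short RNA made from total RNA. The labels call them biological replicates, from separate biosamples under 1 donor label. No second tissue, time point or genotype is in it, so each level below is set against other miRNA genes and against the spread of the 2 libraries.

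A miRNA gene is transcribed as a longer RNA from which a hairpin is cut out, and the hairpin gives 2 short mature arms, named 5p and 3p by their place in it. A mature arm finds its target mRNAs mainly through its seed, the bases from 2 to 8 at its 5′ end, so miRNAs with the same seed can share targets. Mir322 is the mouse counterpart of human MIR424. It and Mir503 are known for holding back cell-cycle genes such as Cdc25a, and both were found to be induced as mouse myoblasts leave the cell cycle and differentiate. Mir351 carries the seed of the miR-125 family, the vertebrate relatives of the worm miRNA lin-4. Bulk limb RNA mixes muscle, cartilage, connective tissue, vessels, nerve and ectoderm, and in it fewer cells of a type and less RNA per cell cannot be told apart.

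The mature sequences show how the members group by seed. All are from RefSeq on GRCm38.p6, which had an entry for all 7 members, and the seed is in capitals. The 5p arms of Mir322 and Mir503 share bases 2 to 7 and differ at base 8:
miR-322-5p: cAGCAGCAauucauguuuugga
miR-503-5p: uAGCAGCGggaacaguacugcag
The full Mir322 seed is also that of the miR-15 and miR-16 family, whose detected genes lie on other chromosomes:
miR-15a-5p: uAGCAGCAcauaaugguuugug
miR-15b-5p: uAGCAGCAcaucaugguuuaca
miR-16-5p: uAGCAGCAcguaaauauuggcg
miR-195a-5p: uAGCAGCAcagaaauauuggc
Beyond the seed the match differed: laid side by side from the 5′ end without gaps, miR-322-5p equals miR-15b-5p at 16 of 22 bases, miR-15a-5p at 15 of 22 and miR-16-5p at 12 of 22. It equals miR-503-5p at 11 of 22.

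The 5p arm of Mir351 starts with the same 8 bases as both miR-125 sequences, and then departs from them, with 10 of 24 bases equal to miR-125a-5p in all:
miR-351-5p: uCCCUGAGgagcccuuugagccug
miR-125a-5p: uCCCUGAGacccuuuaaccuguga
miR-125b-5p: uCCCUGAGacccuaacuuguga
The 3p arm of Mir542 had a seed found in no other gene of the RefSeq table. In human cells this arm has been reported to act on the survivin gene BIRC5:
miR-542-3p: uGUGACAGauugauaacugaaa
The Mir450 hairpins are shown because Mir450-1 and Mir450-2 give the same 5p arm, while the 3p arms of Mir450-1 and Mir450b share a seed:
miR-450a-5p: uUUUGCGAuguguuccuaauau
miR-450b-5p: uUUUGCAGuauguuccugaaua
miR-450a-1-3p: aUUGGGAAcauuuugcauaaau
miR-450a-2-3p: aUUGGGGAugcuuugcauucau
miR-450b-3p: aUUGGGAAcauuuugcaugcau
From miR-450a-1-3p to miR-450b-3p the changes are A19G and A20C, counted from 1 at the 5′ end, and the other 20 bases are equal.

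Levels are given as CPM, the counts on the gene's own strand scaled to the sum of such counts in the library, as counts per 1000000. Replicate 1 held 12407140 reads and replicate 2 held 12657170, and 5927321 and 6003632 of these fell on miRNA genes in sense orientation. A count of 0 allows up to 0.506 and 0.4997 CPM, and limits and intervals here cover counting error only. The limb label was checked against 16 marker miRNA genes, of which 13 had at least 10 counts in each library. The Hox cluster gene Mir196b had 79590 and 70886 CPM and the cartilage gene Mir140 46697 and 46556 CPM. Mir206, the only muscle gene among them, had 3741 and 3940 CPM. Mir10a, Mir10b, Mir455, Mir214, Mir205, Mir203 and Mir126a had at least 1992 CPM in each library. The erythroid gene Mir451a had only 74.7 and 74.8 CPM. The neuronal genes Mir124a-1, Mir124a-2 and Mir124a-3 had 0 counts, but each shares 32 bases with another hairpin, and reads that fit several places enter no gene, so these zeros check nothing. Mir137, another neuronal gene, had 114 and 143 CPM and the liver gene Mir122 66.8 and 80.6 CPM. The check thus set Mir137 and Mir122 apart from the higher markers by level and not by absence, and did not place them below Mir451a. Nothing in the labels says whether the libraries came from separate litters. Any p below sets the difference between these libraries against counting error only.

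The cluster held 7.70% of the sense counts of replicate 1 (exact binomial 95% interval 7.68% to 7.73%) and 8.50% of those of replicate 2 (8.48% to 8.52%), a mean of 8.10% ± 0.56 (SD, n = 2). The libraries thus lay further apart than counting error allows. All 7 members had at least 10 counts in each library, against 372 of the 1973 counted genes, or 18.9%. Of those 1973 genes 871 share 22 or more bases with another hairpin, as do 2 of the members. Reads that fit several places enter no gene, so the 18.9% may be too low. The members spanned a wide range of levels, and that range is described next in order of role.

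Mir322 had 387190 and 443144 counts in replicates 1 and 2, or 65323 and 73813 CPM (69568 ± 6003, SD, n = 2). It ranked 3 of 1973 genes in replicate 1 and 2 in replicate 2. Genes that share bases with another hairpin may be undercounted, so these ranks may place Mir322 too near the top. Mir322 lay above Mir99a, at 63247 and 62295 CPM, in both libraries. Mir335, the next gene above it by mean level, was higher in both libraries, at 73522 and 76572 CPM. Mir196b, the highest by mean, lay above Mir322 in replicate 1 and below it in replicate 2, so those genes did not differ beyond the spread. Mir322 made up 84.8% and 86.9% of the cluster counts, and had 5.57 and 6.61 times the counts of the other members together. Those others summed to 11723 and 11165 CPM.

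Mir503, the partner of Mir322 in cell-cycle control, had 1825 and 2084 CPM, from 10818 and 12511 counts. It held 2.37% and 2.45% of the cluster counts. Although the hairpins lie 200 bases apart, Mir322 stood above Mir503 by 5.16 and 5.15 on the log2 scale (5.15 ± 0.01, SD, n = 2), and this ratio was nearly the same in both libraries. Mir351, with the miR-125 seed, had 8253 and 7282 CPM and held 10.7% and 8.57% of the cluster. It was the only member lower in replicate 2, so the log2 ratio of Mir322 over Mir351 was 2.98 and 3.34 (3.16 ± 0.25, SD, n = 2).

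Mir542 had 1300 and 1384 CPM, from 7705 and 8312 counts. Mir450b had 303 and 360 CPM, Mir450-1 26.5 and 37.0 CPM, and Mir450-2 15.4 and 16.3 CPM. The lowest 2 rest on few reads: Mir450-1 had 157 and 222 counts, and Mir450-2 had 91 and 98 counts, whose exact 95% intervals were 12.4 to 18.8 CPM and 13.3 to 19.9 CPM.

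Among all 1973 genes Mir351 ranked 24 and 28, Mir503 73 and 69, Mir542 91 and 87, Mir450b 141 and 127, Mir450-1 246 and 236, and Mir450-2 269 and 267. These ranks are uncertain, as genes that share bases with another hairpin may be undercounted. The order of levels was Mir322, Mir351, Mir503, Mir542, Mir450b, Mir450-1 and Mir450-2 in both libraries, and no neighbours in it overlapped. The smallest steps were Mir503 over Mir542, at 0.49 and 0.59 on the log2 scale, and Mir450-1 over Mir450-2, at 0.79 and 1.18. The largest steps were Mir450b over Mir450-1, at 3.52 and 3.29, and Mir322 over Mir351, at 2.98 and 3.34, and which of them was larger differed between the libraries. The count of Mir450-1 is a lower limit, as its sequence below shows. From Mir322 to Mir450-2 the log2 difference was 12.06 and 12.14. With 2 libraries an exact two-sided test cannot give a p below 0.5, so these differences carry none. CPM was not divided by length because reads come from arms of 21 to 24 bases. Per 100 hairpin bases the order was the same, with means of 73229 CPM for Mir322, 7846 CPM for Mir351, 2753 CPM for Mir503 and 1579 CPM for Mir542. Reads of the 5p and 3p arms of a hairpin are counted together, so no level here belongs to 1 arm.

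**Figure D1:**
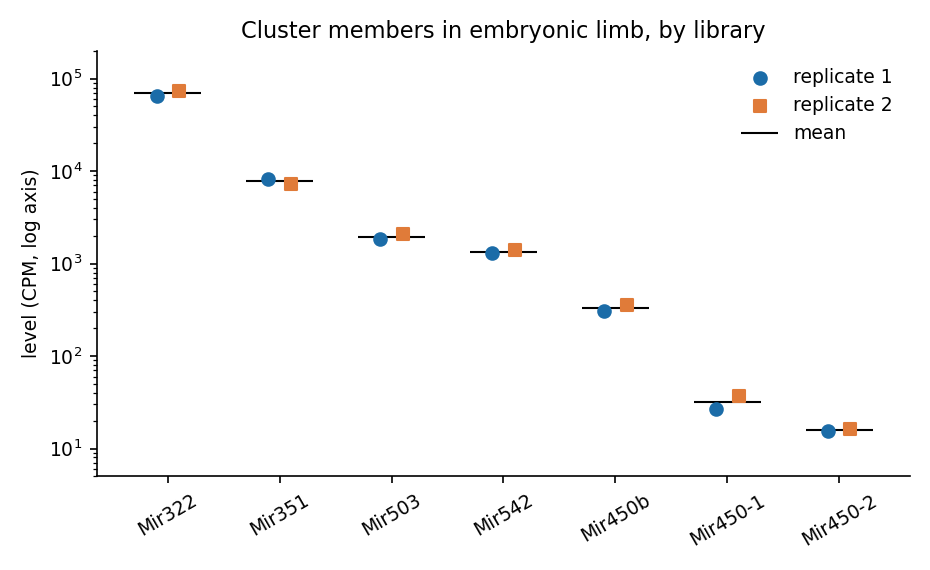
Level of each member (CPM, log axis) in replicate 1 (circles) and replicate 2 (squares), with the mean as a line, ordered by mean. The members run from 69568 CPM for Mir322 to 15.8 CPM for Mir450-2 in the mean, and the points of neighbouring members do not overlap.

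The cluster spans 6353 bases, from 53047997 to 53054349 on the X chromosome (mm10, GENCODE M21). In the direction of transcription Mir322 (chrX:53054255-53054349) comes first, followed by Mir503 (chrX:53053984-53054054), Mir351 (chrX:53053255-53053353), Mir542 (chrX:53049403-53049487), Mir450-2 (chrX:53048299-53048367), Mir450-1 (chrX:53048154-53048244) and Mir450b (chrX:53047997-53048078). Their identifiers in that order are ENSMUSG00000065418, ENSMUSG00000076122, ENSMUSG00000065503, ENSMUSG00000076140, ENSMUSG00000076399, ENSMUSG00000065486 and ENSMUSG00000076050. A gap of 3767 bases separates Mir351 from Mir542. Mir322, Mir503 and Mir351 lie inside the long noncoding RNA gene C430049B03Rik as RefSeq draws it (chrX:53053112-53057190), whereas GENCODE M21 ends that gene upstream of Mir322, at 53055046. The GENCODE long noncoding gene Gm28730 (chrX:53051194-53053159), on the same strand, lies in the gap. The other members lie inside no gene of either annotation.

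Mir322, Mir503 and Mir351 together held 97.9% of the cluster counts in both libraries. The 4 members downstream of the gap held 2.14% and 2.12%, or 1645 and 1798 CPM. The share downstream had a mean of 2.13% ± 0.01 (SD, n = 2), so the libraries hardly differed in this split. Level did not follow position throughout: Mir351 lies downstream of Mir503 but stood above it, and Mir450b, the last hairpin, stood above Mir450-1 and Mir450-2. The hairpins also differ in base composition. Those of Mir322, Mir503, Mir351 and Mir542 had 51.6%, 54.9%, 50.5% and 51.8% G and C, and those of Mir450-2, Mir450-1 and Mir450b had 36.2%, 33.0% and 30.5%. The 3 hairpins of low G and C content were also the 3 lowest in level, and the part of base composition in that order was not tested. The counts of Mir450-1 and Mir450-2 are lower limits, as their sequences below show, so the downstream share and this order carry that doubt.

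**Figure D2:**
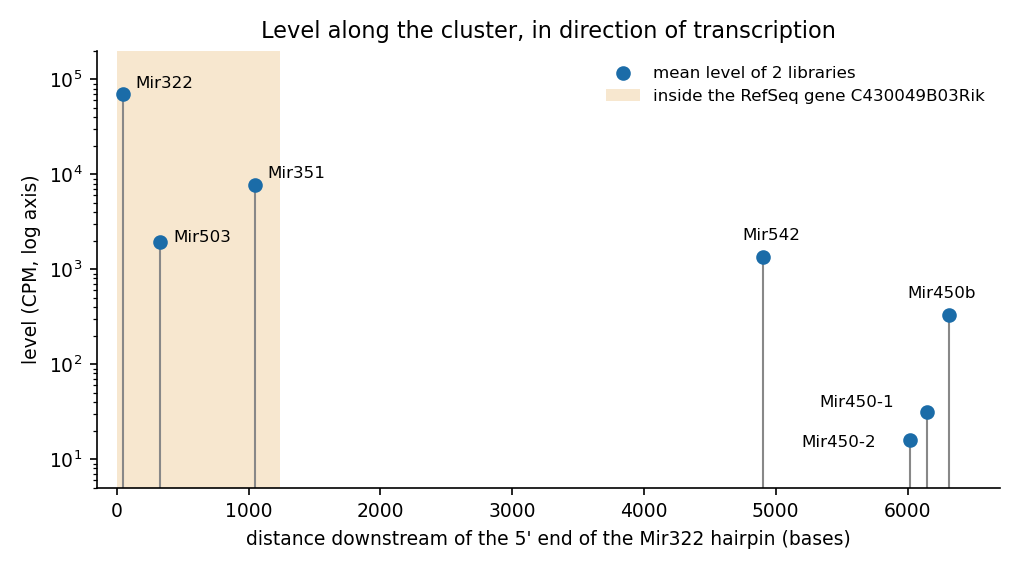
Mean level of each member over 2 libraries (CPM, log axis) against the distance of its hairpin downstream of the 5′ end of Mir322, in bases, with the span inside the RefSeq gene C430049B03Rik shaded. Mir322, Mir503 and Mir351 lie in the shaded span, and Mir542 and the Mir450 hairpins follow a gap of 3767 bases.

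The Mir322 hairpin is printed with both mature arms in capitals, since it carries most of the counts, beside the Mir503 hairpin printed likewise:
Mir322: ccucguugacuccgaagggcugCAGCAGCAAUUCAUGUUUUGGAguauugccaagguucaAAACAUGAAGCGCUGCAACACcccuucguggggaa
Mir503: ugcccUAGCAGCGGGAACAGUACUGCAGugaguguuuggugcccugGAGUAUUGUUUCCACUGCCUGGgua
Neither shares a stretch of more than 13 bases with another annotated miRNA hairpin, and the same holds for Mir351 and Mir542. A full mature arm of these members, at 21 to 24 bases, therefore fits no other annotated miRNA hairpin.

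Mir450-1 and Mir450-2 are different. Reads that fit several places in the genome are listed apart in the count tables and enter no gene, and they were 30.8% and 29.5% of all reads in replicates 1 and 2. The stretch of 25 bases that the hairpins share, in capitals, contains the whole of miR-450a-5p:
Mir450-1: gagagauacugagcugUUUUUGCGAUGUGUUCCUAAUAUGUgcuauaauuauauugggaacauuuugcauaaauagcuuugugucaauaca
Mir450-2: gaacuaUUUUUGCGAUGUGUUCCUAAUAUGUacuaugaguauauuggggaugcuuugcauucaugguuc
A read of miR-450a-5p fits both hairpins equally, so the 41.8 and 53.3 CPM of Mir450-1 and Mir450-2 together are a lower limit, and their places at the bottom of the order are uncertain. Mir450b shares at most 19 bases with Mir450-1. It had 7.25 and 6.76 times the counts of Mir450-1 and Mir450-2 together, a ratio that carries the same doubt.

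Genes outside the cluster that share a seed with a member were set beside it. Both arms of a hairpin are counted together, so the shares below are of hairpins and not of arms with the seed. The Mir322 5p seed is listed for 11 genes, of which 10 are counted and 6 were detected. Mir322 had 91.4% and 92.9% of the family's counts (92.2% ± 1.1, SD, n = 2). The counted relatives outside the cluster summed to 6152 and 5634 CPM, so that Mir322 exceeded them 10.6-fold and 13.1-fold. Among the relatives Mir15a had 2805 and 2503 CPM, Mir16-1 1665 and 1551 CPM, Mir15b 817 and 820 CPM, Mir195a 556 and 541 CPM and Mir16-2 309 and 219 CPM. Mir503 alone, at 1825 and 2084 CPM, lay below Mir15a and above Mir16-1 in both libraries. With the shorter seed of bases 2 to 7, which takes in Mir503, the family held 7.33% and 8.15% of all sense counts, of which cluster members made up 92.3% in the mean.

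The relatives may be undercounted. Mir16-1 and Mir16-2 give the same mature 5p arm and share 23 bases, so full reads of that arm fit both and enter neither. The Mir322 share and its excess over the relatives may therefore be too high, and the place of Mir503 above Mir16-1 is uncertain. Without genes that share 22 or more bases Mir322 held 94.5% of the remaining family counts. That setting drops relatives, so it cannot mend the undercount. Mir497, a further relative, has no count of its own among those analysed here. Reads antisense to Mir497b, which lies opposite it, reached 576 and 602 CPM, and with them added the share of Mir322 was 91.4%. Mir195b had 0 and 1 counts, and Mir6342, Mir6353 and Mir6419 had 0 in both libraries.

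The Mir351 5p seed is listed for 6 genes, all counted and 4 detected. Here the cluster member was less dominant: Mir351 held 57.4% and 56.8% of the family counts (57.1% ± 0.5, SD, n = 2). Mir125a had 4173 and 3571 CPM, Mir125b-1 1447 and 1435 CPM and Mir125b-2 496 and 534 CPM. Mir351 exceeded the sum of these relatives 1.35-fold and 1.31-fold, a ratio with an SD of 0.0247 (n = 2). Mir125b-1 and Mir125b-2 give the same 5p arm and share 24 bases, so full reads of that arm fit both and enter neither, and the ratio may be too high. Mir6367 and Mir6394 had 0 counts. The family held 1.44% and 1.28% of all sense counts.

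**Figure D3:**
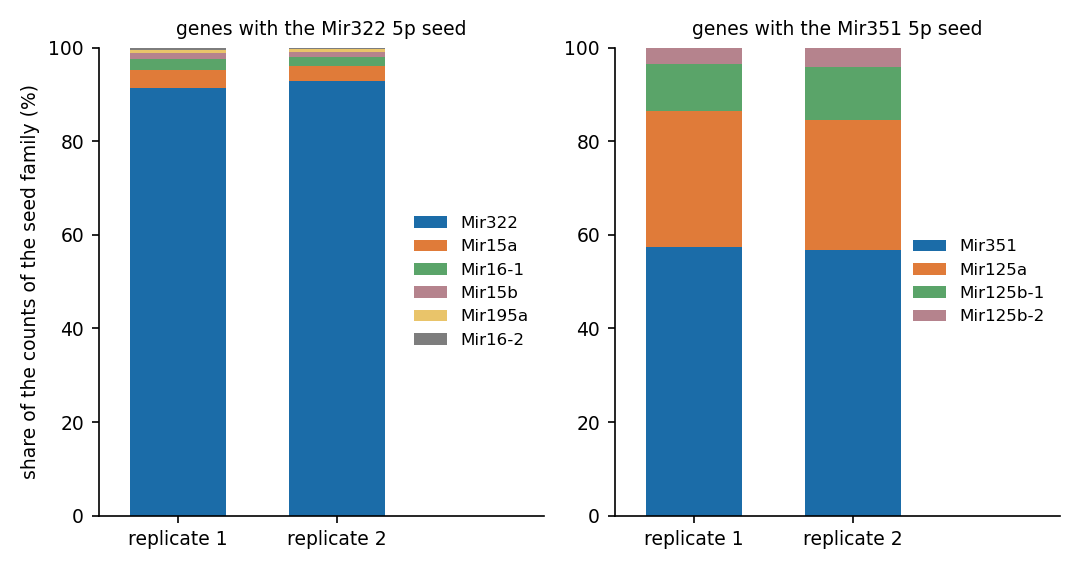
Share of the sense counts of each seed family (percent) held by its detected genes, in replicates 1 and 2, for genes with the Mir322 5p seed (left) and the Mir351 5p seed (right). Counts are per hairpin, with both arms together. Mir322 fills 91.4% and 92.9% of its family and Mir351 57.4% and 56.8% of its own.

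Relatives of the other members had few or no counts. No gene outside the cluster had the seed of miR-503-5p, miR-542-3p, miR-450a-5p or miR-450b-5p in the RefSeq table. The seed of miR-542-5p is shared with Mir6966, which had 2 and 1 counts, and that of miR-450b-3p and miR-450a-1-3p with Mir6352, which had 0. The table held a mature sequence for 338 of the 372 detected genes, and those carried 97.8% and 97.7% of the sense counts.

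Most X-linked counts came from the cluster, and mainly from Mir322. Of 120 counted X-linked miRNA genes 42 were detected, and the 7 members held 75.3% and 75.8% of all X-linked counts (75.5% ± 0.4, SD, n = 2), while X-linked genes as a whole held 10.2% and 11.2% of the library. By mean level among X-linked genes Mir322 ranked 1, Mir351 3, Mir503 8, Mir542 9, Mir450b 16, Mir450-1 30 and Mir450-2 34. The X-linked genes Mir92-2 and Mir19b-2 share 22 and 25 bases with another hairpin and may be undercounted, like Mir450-1 and Mir450-2. These shares and ranks carry that doubt. Mir652, the highest X-linked gene outside the cluster and named after its values were seen, had 8212 and 9878 CPM. Mir351 and Mir652 did not differ beyond the spread, as Mir351 was higher in replicate 1 and Mir652 in replicate 2.

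Other polycistrons showed a similar or narrower spread of member levels. In the Mir17 cluster, known for driving proliferation, the top gene held a smaller share: Mir322 made up 85.8% ± 1.5 of its cluster and Mir17 60.4% ± 1.9 of its own (SD, n = 2 each). The log2 range of member means was 12.10 in the Mir322 cluster and 10.96 in the Mir17 cluster, where levels ran from 30533 CPM for Mir17 down to 15.3 CPM for Mir19b-1. The Mir106a cluster is X-linked as well, and held 0.0804% and 0.0564% of all sense counts. There the first member, Mir106a, held 37.5% ± 0.3, and means ran from 256 CPM for Mir106a to 5.46 CPM for Mir19b-2, a log2 range of 5.55. A stretch of at least 22 bases in common with another hairpin was found for 2 of 7 genes in the Mir322 cluster and for 2 of 6 in each of the others. Mir19b-1 and Mir19b-2 share 25 bases, so their low places are as uncertain as those of Mir450-1 and Mir450-2. Mir92-1 and Mir92-2 each share 22 bases with another hairpin, and reads that fit several places enter no gene. All 3 cluster totals may therefore be too low, and the shares of Mir322, Mir17 and Mir106a too high. The log2 ranges rest on the uncertain low places. These are descriptions of 3 clusters without a test.

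By level in both libraries, Mir335 and Mir99a were the genes outside the cluster most like Mir322, with differences in log2(CPM + 1) of at most 0.17 and 0.24. For Mir351 these were Mir181c and Mir130b, at most 0.17 and 0.20 away. For Mir503 they were the cartilage gene Mir455, at 1992 and 2049 CPM, and the sensory gene Mir183, at 2029 and 2278 CPM. For Mir542 they were Mir467d and Mir467e, at most 0.035 and 0.13 away. Likeness over 2 libraries of 1 tissue is likeness of level alone.

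Since the members are linked to muscle differentiation, muscle miRNA genes were set beside them. Of 10 listed genes 9 were counted and 6 detected. Mir206 had 3741 and 3940 CPM and made up 93.5% ± 0.1 (SD, n = 2) of the list's counts. The Mir322 cluster held 7.70% and 8.50% of all counts, and the muscle list 0.400% and 0.422%. Mir322 lay above Mir206, while Mir503 and Mir542 lay below it in both libraries. Median levels were 1342 CPM for the members, 6.78 CPM for the muscle list, 106 CPM for detected genes and 0 CPM for all counted genes. Mir1a-1, Mir133a-1 and Mir133a-2 had at most 1 count in each library, and share 28, 31 and 31 bases with another hairpin. Reads that fit several places enter no gene. The share and median of the muscle list may therefore be too low, and the Mir206 share of the list too high.

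Between the libraries the log2 ratios of the members ran from -0.18 for Mir351 to 0.48 for Mir450-1. A two-sided exact binomial test was run on 444 genes with Benjamini-Hochberg adjustment. With a minimum absolute log2 ratio of 1 it called 15 genes, or 3.38% of those tested, and 0 of 7 members. On the adjusted p alone it called 179, or 40.3%, and 6 of 7 members, and these 6 also had an unadjusted p under 0.05, as did 201 genes in all. With edgeR's TMM or DESeq2's size factors the members called were again 0 with the minimum ratio and 6 without it. The test covers counting error only, so it compares these libraries and no conditions.

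In replicate 2 over replicate 1, 6 of 7 members were higher. The log2 ratio was 0.18 for Mir322, 0.19 for Mir503 (adjusted p = 4.27e-23, exact binomial test), 0.25 for Mir450b (adjusted p = 3.24e-07, exact binomial test) and 0.48 for Mir450-1 (adjusted p = 0.00467, exact binomial test). For Mir542 it was 0.09 (adjusted p = 0.000275, exact binomial test). For Mir450-2 it was also 0.09 and did not pass (adjusted p = 0.842, exact binomial test). Mir351 went the other way at -0.18 (adjusted p = 2.07e-79, exact binomial test). The median over the members was 0.18, beside -0.02 over the tested genes, of which 47.3% were higher in replicate 2. A shift of this size was common: among 97 genes of at least 1000 CPM the median absolute log2 ratio was 0.11, and 28 of them moved by more than Mir351. The direction of every member was the same with edgeR's TMM or DESeq2's size factors, where Mir351 lay at -0.16.

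**Figure D4:**
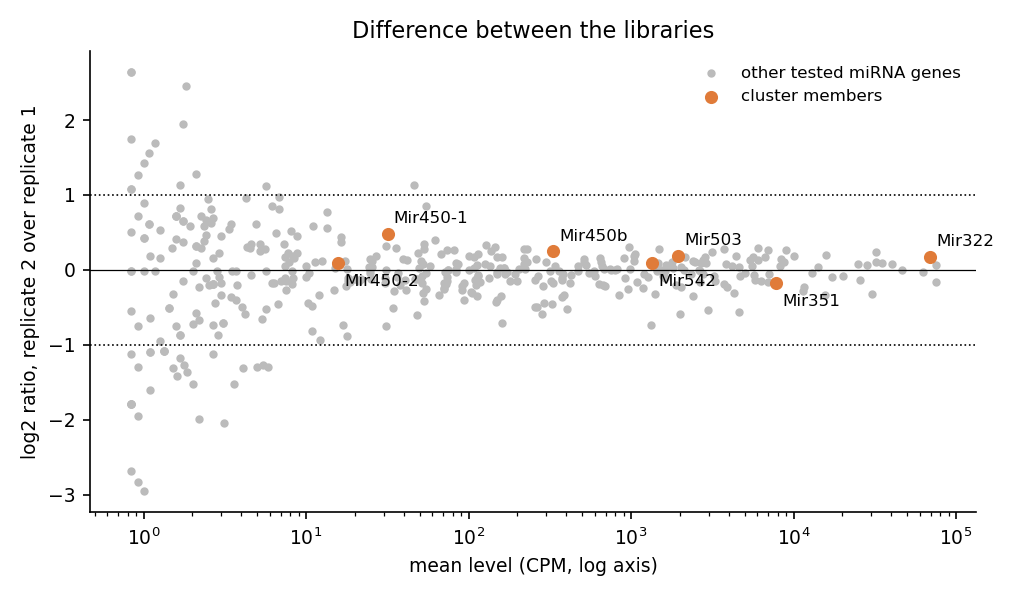
Log2 ratio of replicate 2 over replicate 1 against mean level (CPM, log axis) for the 444 tested miRNA genes, with the members in colour and dotted lines at a log2 ratio of 1 and -1. All members lie between the dotted lines, 6 above 0 and Mir351 below it at -0.18.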

How the data were processed

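The authors deposited raw read counts as whole numbers for 1973 miRNA genes, 1 file per library, giving either strand, sense and antisense. No header names these columns, and they were read from their layout, in which the first equals the sum of the others. The build was mm10 per the labels, with annotation GENCODE M4 per the deposited text. Neither aligner nor counter is given in the sources used here. Reads outside genes were left out of totals. Unmapped reads made up 17.2% and 18.6% of the libraries, multimapping ones 30.8% and 29.5%, and those in no gene 4.24% and 4.48%. CPM was computed here from 5927321 and 6003632 sense counts.

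Symbols and positions came from GENCODE M21 on GRCm38, matching 1894 of 1973 identifiers. The printed mature and hairpin sequences came from RefSeq on GRCm38.p6. GENCODE M21 hairpin sequences were used for G and C content and for the search of identical stretches shared with any other annotated miRNA hairpin. Detection needed at least 10 sense counts in each library. The binomial test covered genes with at least 10 counts over both libraries, with an adjusted p threshold of 0.05 and 0.5 counts added in log2 ratios. The procedure was tested on simulated data that held counting error only. With no spread between replicates in them, those data cannot show how the test behaves under such spread. Values are mean ± SD. Named genes were all members, detected genes sharing a seed with one, the highest and lowest of the comparison clusters, the closest genes in level and the first muscle gene. The members and lists were chosen with earlier results of these data known. Alternatives were other denominators, both strands, other scalings (edgeR 4.0.16, DESeq2 1.42.0), other filters, seeds and pseudocounts, and each library alone. The test was run in Python 3.11.15 with SciPy 1.17.1.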

Additional observations from a re-analysis of the deposited data

Results flagged for a closer look

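Reads antisense to Mir497b numbered 3412 in replicate 1 and 3612 in replicate 2, in the antisense column, which the levels leave out and only alternatives take in, and above the limit of 3 counts that a count of 0 allows. Mir497b lies opposite Mir497, which has the Mir322 5p seed and has no count of its own among those analysed here. Over the cluster members themselves antisense reads numbered 1 in replicate 1 and 0 in replicate 2.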

How the results depend on the processing

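The share of counts held by the cluster was 3.86% of all reads and 7.42% of uniquely mapped reads, against 8.10% of gene counts, as the denominators are larger by construction. Without genes that share 22 or more bases with another hairpin, Mir322 held 94.5% and Mir351 66.8% of their seed families, against 92.2% and 57.1% with them, as relatives with copies are then left out. With replicate 1 or replicate 2 alone the cluster share was 7.70% and 8.50%, the Mir322 share of the cluster 84.8% and 86.9%, and the log2 ratio of Mir322 over Mir351 2.98 and 3.34. By arithmetic a single library always lies within 1 SD of the mean of both, so no single-library value tests stability. Every other alternative stayed within 1 SD of the value given or within 1.5 times the count, among them 6 members with at least 100 counts in each library and a log2 ratio of Mir322 over Mir351 of 3.22 per hairpin length. That last alternative and the addition of Mir497b antisense reads were chosen after seeing the data. The test between libraries needs both, so it has no value without one. Over all genes, the minimum of 50 summed counts left 5 genes called between libraries with the minimum ratio, against 15. No paired analysis was possible because there is 1 group. Depth limits Mir450-2 most, at 91 and 98 counts.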
